A study of Homo sapiens with 78 samples.

Results

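Cells of the established human line A549, epithelial cells from a lung carcinoma, were exposed to the inhaled glucocorticoid budesonide for 24 h and compared with cells that were not stimulated (NS) and harvested at the same time. The comparison used 8 of the 78 libraries of the series, 4 budesonide and 4 NS, and covered 13327 of the 19652 genes listed, those with at least 1 TPM (a gene's share of all transcripts, scaled to a fixed total and then rescaled between libraries) in at least 3 libraries. Budesonide was used at 300 nM and was added from a DMSO stock. Both groups had been kept without serum overnight and were then given fresh medium, also without serum. The labels name no solvent control in NS cells, so the drug and its solvent cannot be told apart. Neither group received the cytokine IL-1β, which other groups of the series did. All cells were of this 1 line, with no genetic change, and the labels describe 4 independent experiments without saying which library came from which. Poly(A) RNA was sequenced, so each value is the level of a gene's mRNA averaged over the whole culture.

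Budesonide enters the cell and binds the glucocorticoid receptor (GR, gene NR3C1), which moves to the nucleus, binds DNA and raises or lowers the transcription of nearby genes. In airway epithelial cells its raised targets include inhibitors of inflammatory signaling, and glucocorticoids are also known to slow the growth of several cell types. Many of the products are themselves regulators of transcription, so genes further downstream can follow with a delay.

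The 8 libraries lay close to their groups. The median distance over genes of each library from the median of its group's other libraries ran from 0.105 to 0.156 in log2 units. This lay within the range of 0.102 to 0.459 over all 78 libraries. The sum of values was 895250 to 915407 TPM in budesonide libraries and 812680 to 846501 TPM in NS libraries, without overlap. RNAs encoded in the mitochondrial genome made up 15.5 to 17.2% of the sum in budesonide libraries and 14.5 to 16.0% in NS libraries. The median log2 fold change over all genes was -0.01. Epithelial markers were present, among them KRT8 at up to 7839 TPM. Of 20 genes in the surfactant and alveolar type II list, 8 stayed under 1 TPM in all 8 libraries, including SFTPA1, SFTPA2, SFTPB and NKX2-1. None of 8 endothelial markers reached 1 TPM, and 9 of 12 immune cell markers did not. Of 10 fibroblast markers, 4 did not, while COL1A1 reached 13.6 TPM.

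Budesonide raised 546 genes and lowered 760 of the 13327 tested (4.1% and 5.7%). The counts of called genes in each list below are to be read beside these shares. A call needed a limma adjusted p of at most 0.05 and a change of at least 2-fold, computed on log2 of the TPM plus 0.5, a scale that understates the change of genes with low values. At the adjusted p alone, 5482 genes differed, 2603 of them higher and 2879 lower with budesonide. The levels in budesonide and NS libraries did not overlap for 5654 genes (42.4%), and for 531 of the 546 raised and 743 of the 760 lowered genes. Changes of at least 8-fold were seen for 39 raised and 27 lowered genes. The plot of fold change against level shows the calls.

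**Figure D1:**
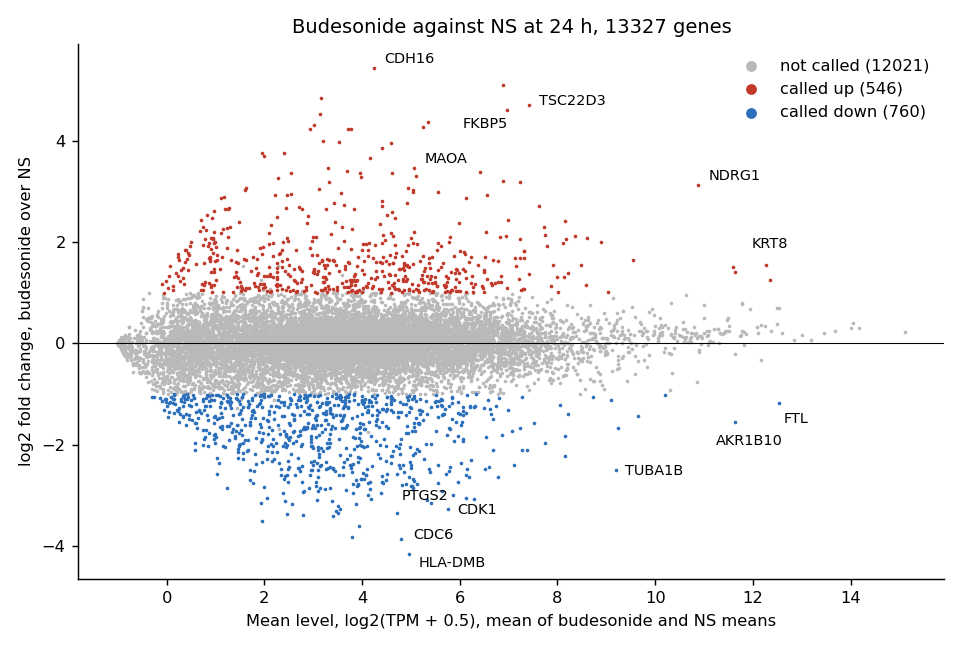
Fold change of each of the 13327 genes (log2, budesonide over NS, 24 h) against its mean level, log2 of TPM plus 0.5, with called genes in red (546 up) and blue (760 down). Raised genes reach further from 0 than lowered ones, CDH16 with 5.43 and HLA-DMB with -4.17.

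Nearly all textbook targets of GR were higher with budesonide. Of 24 tested, 22 were raised and 0 lowered, with a median log2 fold change of 2.05 against -0.01 over all genes. Their summed level was 3184 to 3392 TPM in budesonide libraries and 627 to 698 TPM in NS libraries. The list was put together from known glucocorticoid targets with earlier results of these data in view, so its direction is no independent evidence. TSC22D3, which holds back NF-κB and AP-1, had the largest change of the list (4.70 ± 0.12, SE). FKBP5, a co-chaperone that lowers the affinity of GR for its ligand, had 236, 236, 250.4 and 237 TPM in budesonide libraries, against 9.26, 9.43, 9.28 and 9.51 TPM in NS libraries. Its change of 4.61 ± 0.10 on the log2 scale (SE) had the smallest error among the genes raised most. PER1, a component of the circadian clock that GR also controls, had 41.3, 35.7, 33.0 and 36.1 TPM with budesonide, against 5.39, 4.43, 5.32 and 5.55 TPM in NS libraries. DUSP1, the phosphatase that switches off p38 and JNK kinases, had 273, 258, 272 and 278 TPM with budesonide and 25.2, 30.0, 29.5 and 32.4 TPM without. The budesonide values of these genes lay far above every NS value. ERRFI1, an inhibitor of the EGF receptor, averaged 215 ± 13.4 TPM with budesonide, against 39.3 ± 1.54 TPM in NS cells (means ± SD of 4 libraries, as in what follows). TFCP2L1, a transcription factor of ductal epithelia, averaged 39.4 ± 8.90 TPM with budesonide and 2.23 ± 0.301 TPM without. KLF9, a repressor of growth-related genes in several tissues, averaged 7.59 ± 1.45 TPM with budesonide and 0.941 ± 0.303 TPM without. All 3 were higher in every budesonide library than in any NS library. At the other end of the list SGK1, the kinase that keeps sodium channels at the cell surface, had 36.3, 40.7, 38.9 and 48.5 TPM with budesonide, against 14.7, 16.1, 14.9 and 24.3 TPM in NS libraries. The groups were apart but close, with a change of 1.23 ± 0.18 (SE). The 2 members not called included CRISPLD2, which stayed under 1 TPM in all 8 libraries.

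Of 17 tested genes for the receptor and its chaperones, limma called none, where 4.1% and 5.7% of all genes were called. For a list of this size that is near the shares over all genes. At an unadjusted p of 0.05 there were 6, all lower. The summed level of the 18 listed genes was 2524 to 2637 TPM in budesonide libraries and 3000 to 3263 TPM in NS libraries. NR3C1 itself had 37.8, 29.4, 33.8 and 35.7 TPM in budesonide libraries and 37.0, 33.8, 34.9 and 38.5 TPM in NS libraries, overlapping groups with a log2 fold change of -0.08 ± 0.21 (SE, limma adjusted p = 0.806). HSP90AA1, a heat shock protein that holds unliganded GR ready, had 345, 362, 345 and 333 TPM with budesonide and 677, 636, 607 and 659.9 TPM without. These groups did not overlap, although the change of -0.90 ± 0.11 was short of 2-fold.

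The promoter of FKBP5 is shown because it had the largest change among the GR target genes whose RefSeq promoter (GRCh38.p14) holds a half-site of the GR motif. The stretch is chr6:35728564-35728683, minus strand, from 100 bases before the start to 20 bases after, and capitals mark the half-site, here TGTTCT on the opposite strand.
FKBP5: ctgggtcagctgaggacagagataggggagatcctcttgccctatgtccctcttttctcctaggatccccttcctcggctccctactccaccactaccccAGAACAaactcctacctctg
The half-site was found in 8.82% of the 10665 promoters of tested genes and in 14.9% of the 27305 promoters of the table. The full inverted repeat of the half-site with 3 bases between was found in none of those 10665, a statement about windows of 300 bases at gene starts only. Shares over all raised or lowered genes, and over the GR target list, are void because fewer than 80% of these genes had a promoter in the table (76.7%, 76.2% and 77.3%).

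**Figure D2:**
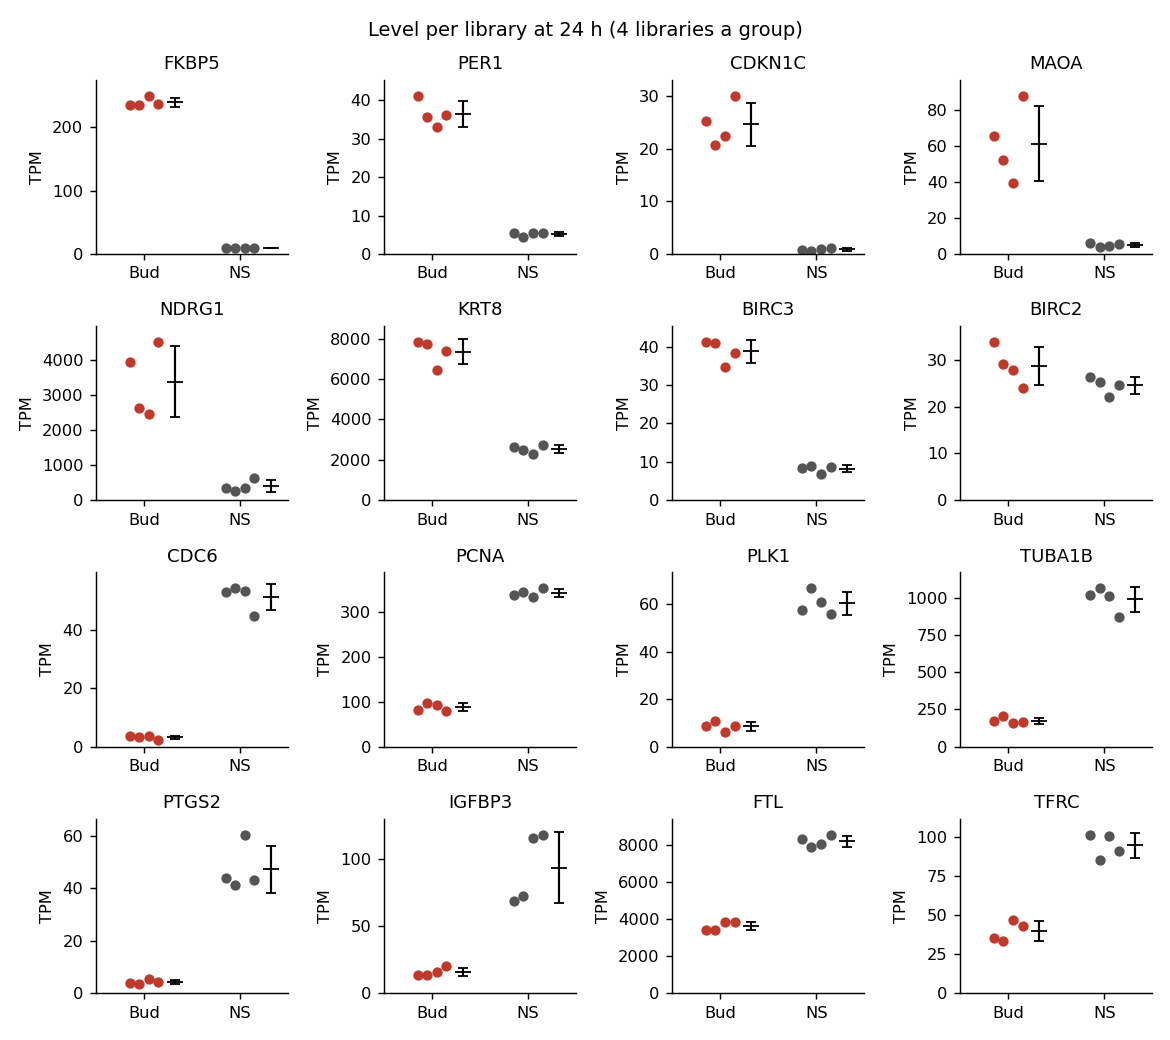
Level in TPM of 16 genes in each library at 24 h, budesonide (Bud, red) left of NS (grey), with mean and SD of 4 libraries beside the points. FKBP5, PER1, CDKN1C, MAOA, NDRG1, KRT8 and BIRC3 are higher with budesonide and CDC6, PCNA, PLK1, TUBA1B, PTGS2, IGFBP3, FTL and TFRC are lower, each without overlap, whereas the BIRC2 values overlap.

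Beyond the textbook list, the genes with the largest fold changes were of varied function. CDH16, a cadherin of kidney epithelium, had 40.1, 26.7, 28.5 and 51.4 TPM in budesonide libraries, against 0.233, 0.226, 0.367 and 0.551 TPM in NS libraries, the highest log2 fold change of all genes (5.43 ± 0.19, SE). CIDEC, a protein of lipid droplets, had 238, 199, 196 and 288 TPM with budesonide and 4.56, 4.18, 5.96 and 12.3 TPM without. STAC2, an adaptor of calcium channels, averaged 16.7 ± 1.71 TPM with budesonide and 0.0949 ± 0.0467 TPM without. BEST2, a chloride channel, had 20.1, 14.7, 13.1 and 17.9 TPM with budesonide, against 0.195, 0.384, 0 and 0.400 TPM in NS libraries. In all of these the lowest budesonide value was more than 10 times the highest NS value. ETNK2, an ethanolamine kinase of phospholipid synthesis, averaged 71.4 ± 3.40 TPM with budesonide and 3.24 ± 0.485 TPM without. OTULINL averaged 77.0 ± 6.82 TPM with budesonide and 3.32 ± 0.774 TPM without. DNAJC15, a mitochondrial co-chaperone, averaged 15.0 ± 4.33 TPM and METTL7A 13.9 ± 2.12 TPM with budesonide, against 0.273 ± 0.176 TPM and 0.262 ± 0.0779 TPM in NS cells. The last pair was under 1 TPM in the NS mean, so the log2 scale with its pseudocount understates their change. FBXL16, an F-box protein, had 53.4, 35.1, 49.8 and 40.2 TPM with budesonide, against 0.554, 2.72, 2.75 and 5.66 TPM in NS libraries. Its NS values differed widely among themselves, without reaching the budesonide range. GMPR, the enzyme that turns GMP into IMP, had 8.96, 10.6, 8.86 and 8.87 TPM with budesonide and 0.137, 0.136, 0.148 and 0.568 TPM without. ATOH8, a basic helix-loop-helix factor, averaged 32.7 ± 4.80 TPM with budesonide and 2.15 ± 0.354 TPM without. In GMPR the highest NS value was NS replicate 4, which was still far below the lowest budesonide value. KRT6A had 5.18, 11.2, 5.09 and 47.7 TPM in budesonide libraries, where 1 library held more than the other 3 together, against 0.0730, 0.481, 0.0592 and 0.374 TPM in NS libraries.

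In TPM, 3 keratins were among the 5 called genes with the largest rise. The summed TPM of KRT7, KRT8 and KRT18, keratins of simple epithelia, was 1.60 to 1.93% of all values in budesonide libraries and 0.594 to 0.764% in NS libraries. KRT8 had 7839, 7757, 6471 and 7383 TPM with budesonide, against 2636, 2490.4, 2266 and 2731 TPM in NS libraries, the largest rise in TPM of all called genes. KRT18, its partner in filaments, had 4673, 4881, 3657 and 5067 TPM with budesonide and 1584, 1649.7, 1313 and 1919 TPM without. KRT7 had 4733, 5062, 4271 and 4321 TPM with budesonide and 1857, 1809.8, 1450.4 and 1794 TPM without. All 3 had groups that did not overlap and changed by less than 3-fold. Of 13 keratins tested, 5 were raised and 3 lowered, the last including KRT4 of mucosal surfaces with 1.44 ± 0.842 TPM with budesonide, against 5.04 ± 1.06 TPM in NS cells. The list as a whole thus moved both ways. ANXA2, which links membranes to actin, had 7496, 8397, 7089.9 and 6457 TPM with budesonide and 3125, 3053, 2793 and 3427 TPM without. Its change of 1.24 ± 0.08 (SE) was no longer past 2-fold after quantile normalization. NDRG1, a gene known to rise in stressed and in differentiating cells, had 3946, 2621, 2447 and 4517 TPM with budesonide, against 339.6, 249, 361 and 641 TPM in NS libraries, so that its rise of 2985 TPM in the mean was the third largest. HSPB1, a small heat shock protein, averaged 1134 ± 185 TPM with budesonide and 361 ± 18.5 TPM without. NNMT, which methylates nicotinamide, averaged 628 ± 43.1 TPM with budesonide, against 149 ± 19.5 TPM in NS cells. CALD1, which binds actin and myosin, averaged 533 ± 82.1 TPM, and STOM, a membrane scaffold, 479 ± 41.5 TPM with budesonide, against 122 ± 13.5 TPM and 89.6 ± 15.7 TPM in NS cells. HSPB1, NNMT, CALD1 and STOM rose between 3- and 6-fold in the mean. ACTB, a reference gene for many assays, had 3184, 3452, 3081 and 3452 TPM with budesonide and 2351, 2525, 2116 and 2536 TPM without, which did not overlap although the change of 0.47 ± 0.12 was under the threshold.

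Genes of ion transport and of fluid balance were raised in part. Of 20 tested, 5 were raised and 1 lowered, where 4.1% and 5.7% of all genes were. The lowered part was thus near that of all genes. The epithelial sodium channel, through which sodium and then water leave the airspace, is made of subunits encoded by SCNN1A, SCNN1B and SCNN1G, all 3 of which were raised. SCNN1G had 7.14, 6.58, 6.30 and 7.62 TPM with budesonide and 0.0356, 0.154, 0.0716 and 0.0369 TPM without, so that it was near 0 in every NS library. SLC12A2, which carries sodium, potassium and chloride into the cell, had 42.0, 46.2, 43.1 and 28.4 TPM with budesonide and 142, 147, 160.5 and 126 TPM without. HSD11B2, the enzyme that inactivates cortisol in salt-transporting epithelia, had 9.64, 9.21, 10.4 and 31.3 TPM with budesonide, against 1.21, 1.01, 1.08 and 1.31 TPM in NS libraries, and HSD11B1, which regenerates cortisol, had 1.71, 2.17, 1.62 and 8.84 TPM with budesonide, against 0, 0, 0.0545 and 0.0336 TPM in NS libraries. Replicate 4 was the highest budesonide library for both by about 3-fold or more, and the other 3 were also above every NS library.

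Surfactant genes are expressed in alveolar type II cells. The list also held genes that do not encode surfactant proteins, among them AGER, FOXA2 and HNF4A. Of 14 tested in the list, 2 were raised and 1 lowered, where 4.1% and 5.7% of all genes were. The lowered part was thus near that of all genes. SFTPD, surfactant protein D, had 5.47, 7.84, 5.20 and 19.0 TPM with budesonide and 0.394, 0.353, 0.617 and 1.40 TPM without. SFTPC, surfactant protein C, was not called, with 0.117 to 0.215 TPM with budesonide and 0.205 to 0.949 TPM without. PGC, an aspartic protease also made by type II cells, had 3.03, 4.57, 3.88 and 1.89 TPM with budesonide, whereas it was listed at 0 in 3 NS libraries and at 0.0327 TPM in the other. ETV5, a factor that keeps type II cell identity in mice, had 9.25, 8.59, 23.5 and 19.3 TPM with budesonide and 28.2, 31.9, 26.4 and 42.0 TPM without, a change of -1.17 ± 0.32 that lost its call without budesonide replicate 1 or 2.

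Genes of complement and of coagulation moved both ways, and few acute phase genes were called. SERPINA3, an inhibitor of neutrophil proteases, had 16.6, 22.7, 20.3 and 25.4 TPM with budesonide and 0.617, 0.797, 1.33 and 0.858 TPM without. SAA1, serum amyloid A, had 6.09, 7.66, 4.98 and 8.07 TPM in budesonide libraries, whereas it was listed at 0 in 3 NS libraries and at 0.120 TPM in the other. The other acute phase genes tested, of 14 in all, were not called. Of 19 complement genes, 4 were raised and 3 lowered, where 4.1% and 5.7% of all genes were. C3, the central component, had 155, 183, 174 and 102 TPM with budesonide and 10.0, 15.9, 26.6 and 8.90 TPM without. C1R and C1S, proteases that start the classical pathway, averaged 88.1 ± 12.0 TPM and 115 ± 2.93 TPM with budesonide and 21.4 ± 0.423 TPM and 35.0 ± 2.63 TPM in NS cells. Budesonide libraries of C3 and C1R lay above all NS libraries. CLU, clusterin, had 861, 737, 652 and 862 TPM with budesonide, against 1742, 1504, 1443 and 1612 TPM in NS libraries. Its groups did not overlap, but leaving out budesonide replicate 3 or NS replicate 1 took the change (-1.02 ± 0.12) below 2-fold. PLAUR, the receptor of a plasminogen activator, fell to 9.54 ± 2.09 TPM with budesonide, against 21.6 ± 2.20 TPM in NS cells. Coagulation and fibrinolysis genes as a list had 6 raised and 3 lowered of 21.

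Cytokines and chemokines that were called mostly fell in these cells, which had received no cytokine. Of 28 tested, 6 were lowered and 1 was raised, where 5.7% and 4.1% of all genes were. The raised part was thus near that of all genes. CXCL5, a chemokine for neutrophils, had 17.2, 17.6, 15.5 and 16.5 TPM in budesonide libraries, against 86.5, 87.5, 115 and 87.1 TPM in NS libraries. TNFSF15, a cytokine of the TNF family, had 0.0819, 0.0483, 0.0554 and 0.0980 TPM with budesonide, against 4.27, 3.29, 4.08 and 3.05 TPM in NS libraries, so that it was near 0 in all 4 budesonide libraries. CXCL8 had 0.869, 0.901, 1.39 and 0.978 TPM with budesonide and 2.16, 2.95, 4.21 and 2.62 TPM without, and its call was lost with a pseudocount of 1. IL11, a cytokine of the IL-6 family, averaged 1.76 ± 0.241 TPM with budesonide and 7.27 ± 1.13 TPM in NS cells. IL6 itself was listed at 0 in all 8 libraries. Of the lowered cytokines named here, CXCL5 alone was above 10 TPM in NS libraries. The one cytokine that rose was IL18, an interleukin of the IL-1 family that epithelia store as a precursor, with 196, 209.7, 164 and 261 TPM with budesonide, against 84.1, 75.8, 67.8 and 119 TPM in NS libraries. CASP1, the protease that processes it, had 2.02, 2.33, 2.41 and 2.79 TPM with budesonide, against 0.787, 0.263, 0.0613 and 0 TPM in NS libraries.

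Genes of prostaglandin formation, breakdown and reception changed in both directions, with 3 raised and 2 lowered of 13. PTGS2, the inducible cyclooxygenase, had 3.65, 3.60, 5.32 and 4.24 TPM with budesonide and 44.1, 41.3, 60.6 and 43.1 TPM without. PLA2G4A, the phospholipase that releases arachidonic acid for it, had 23.2, 24.6, 30.2 and 25.1 TPM with budesonide, against 80.5, 71.1, 92.4 and 95.3 TPM in NS libraries. HPGD, which inactivates prostaglandins, had 496, 559, 575 and 487 TPM with budesonide, against 165, 185, 186 and 189 TPM in NS libraries. The enzyme that starts synthesis and the one that feeds it were thus lower, and the one that ends the signal higher, in every budesonide library. PTGDS, a prostaglandin D synthase, averaged 6.95 ± 2.70 TPM with budesonide and 0.885 ± 0.205 TPM without, and PTGER4, a receptor of prostaglandin E2, averaged 4.06 ± 0.610 TPM with budesonide and 0.950 ± 0.240 TPM without.

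Of 33 genes of the NF-κB pathway and its restraint, 6 were raised and the other 27 were not called. NFKBIA, the inhibitor that keeps NF-κB in the cytoplasm, had 187, 169, 196 and 181 TPM with budesonide and 38.4, 43.1, 50.9 and 38.0 TPM without. TNFAIP3, which trims ubiquitin chains from the pathway's adaptors, averaged 4.73 ± 0.249 TPM with budesonide and 1.39 ± 0.298 TPM without. ZFP36 and ZC3H12A, which destroy cytokine mRNAs, averaged 74.4 ± 12.6 TPM and 36.6 ± 6.78 TPM with budesonide and 19.0 ± 6.67 TPM and 11.8 ± 1.90 TPM in NS cells. IRAK3, an inhibitor of receptor kinases, had 1.53, 0.756, 0.996 and 0.981 TPM with budesonide, against 0.0481, 0.0233, 0.0235 and 0.0484 TPM in NS libraries, a low level at which the call was lost with a pseudocount of 1. The 5 raised genes named so far are known to hold back inflammatory signaling, and the other raised gene was BIRC3. BIRC3 and BIRC2 are neighbouring genes for related ubiquitin ligases of the inhibitor of apoptosis family. BIRC3 had 41.3, 40.9, 34.8 and 38.4 TPM in budesonide libraries, against 8.40, 8.89, 6.87 and 8.76 TPM in NS libraries, a change of 2.18 ± 0.17 (SE, limma adjusted p = 1.33e-17). BIRC2 had 33.9, 29.2, 27.9 and 24.1 TPM with budesonide and 26.3, 25.2, 22.1 and 24.7 TPM without, overlapping groups with a change of 0.22 ± 0.13 (SE, limma adjusted p = 0.184). The BIRC3 change was 2.11 at 6 h and 2.16 at 12 h, against 0.10 and 0.03 for BIRC2. BIRC3 was therefore higher at each of these times, and BIRC2 stayed within 0.22 of its control. Of 35 genes induced by interferon, OAS3 was lowered and the others were not called, where 4.1% of all genes were raised and 5.7% lowered.

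Immediate early genes, which growth factors switch on within minutes, were split, with 4 raised and 7 lowered of 23. FOS had 44.9, 36.4, 42.9 and 32.5 TPM with budesonide and 5.03, 6.12, 10.2 and 16.6 TPM without, the NS values differing by more than 3-fold among themselves. IER3 had 9.48, 9.45, 9.00 and 10.6 TPM with budesonide, against 39.8, 43.7, 39.7 and 40.8 TPM in NS libraries. NR4A1, an orphan nuclear receptor, had 6.27, 5.69, 9.30 and 6.61 TPM with budesonide, against 22.5, 20.3, 25.8 and 22.8 TPM in NS libraries. FOS thus went against the other members named here.

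Among growth factors and their receptors, the receptor EGFR had 39.1, 31.9, 29.6 and 35.1 TPM with budesonide, against 13.3, 13.9, 11.8 and 13.1 TPM in NS libraries, whereas NRG1, a ligand of related receptors, averaged 19.5 ± 2.10 TPM with budesonide and 52.2 ± 3.21 TPM in NS cells. IGFBP3, which binds insulin-like growth factors, had 13.2, 13.6, 15.6 and 20.2 TPM with budesonide, against 68.5, 72.4, 115 and 118 TPM in NS libraries. Even the lowest NS library was more than 3 times the highest budesonide library. IGFBP1, a related protein known to rise with glucocorticoids in liver, had 41.7, 38.2, 41.6 and 83.4 TPM with budesonide, against 8.25, 8.13, 11.9 and 18.7 TPM in NS libraries. IGF2 had 0.875, 1.61, 1.79 and 1.10 TPM with budesonide, against 5.20, 8.02, 7.67 and 3.33 TPM in NS libraries. FOXO3, a factor that insulin signaling holds out of the nucleus, had 20.8, 17.8, 20.7 and 19.0 TPM with budesonide and 3.43, 3.54, 3.69 and 3.65 TPM without. FOXO1 and FOXO4 were also raised, and the list had 6 raised and 2 lowered of 29.

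The TGF-β family and its regulators had 3 genes raised and 5 lowered of 30. FST, follistatin, which traps activins, had 0.0615, 0.0797, 0.317 and 0.0226 TPM with budesonide, against 5.66, 5.23, 9.70 and 5.98 TPM in NS libraries. GDF15, a stress-induced ligand, had 3.69, 3.37, 4.61 and 5.15 TPM with budesonide, against 38.7, 37.6, 46.7 and 23.5 TPM in NS libraries. Both ligands or traps were thus low in every budesonide library. TGFBR1 and TGFBR3, receptors of TGF-β, averaged 55.4 ± 6.58 TPM and 14.0 ± 3.19 TPM with budesonide and 20.6 ± 4.37 TPM and 5.01 ± 0.730 TPM in NS cells. Matrix genes moved both ways, with 4 raised and 4 lowered of 33. VCAN, a large proteoglycan, had 5.79, 4.13, 4.69 and 11.1 TPM with budesonide, against 24.1, 19.0, 24.8 and 25.5 TPM in NS libraries. COL1A1, the main chain of type I collagen, had 3.97, 3.35, 2.24 and 4.26 TPM with budesonide, against 13.6, 9.29, 9.89 and 13.1 TPM in NS libraries. By contrast LOX, which crosslinks collagen, had 2.33, 2.45, 2.23 and 3.81 TPM with budesonide, against 0.240, 0.167, 0.482 and 0.281 TPM in NS libraries. ITGB4, the integrin subunit that joins epithelia to laminin, had 387, 292, 279.8 and 410.0 TPM with budesonide and 47.1, 49.4, 58.8 and 49.1 TPM without. ITGA5, a subunit of the fibronectin receptor, averaged 39.7 ± 5.44 TPM with budesonide and 11.2 ± 1.48 TPM without. Both are subunits of receptors for matrix, and both were higher in every budesonide library. LAMA3 and LAMB3, chains of laminin-332, averaged 19.1 ± 5.44 TPM and 22.2 ± 13.2 TPM with budesonide and 6.00 ± 2.27 TPM and 6.71 ± 2.06 TPM in NS cells. LAMB3 varied more among budesonide libraries than the other matrix genes named. Of the 6 fibroblast markers tested, 3 were lowered (COL1A1, THY1 and LUM) and 1, DCN, was raised, and the LUM groups overlapped and lost their call without NS replicate 4 or when these groups were fitted alone. Of the 10 fibroblast markers, COL1A2, PDGFRA, PDGFRB and FAP stayed under 1 TPM in all 8 libraries. The others reached 1 TPM in at least 1 library, among them ACTA2 with up to 11.45 TPM. By their labels all cultures were of the A549 line, and whether they held any other cells was not tested.

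Some genes of lipid storage and fatty acid activation rose, and most of the list was not called. Of 26 genes of lipid handling, 6 were raised and 1 lowered, where 4.1% and 5.7% of all genes were. The lowered part was thus near that of all genes. ACSL1, which activates fatty acids, had 126, 137, 123 and 107 TPM with budesonide, against 15.1, 15.4, 17.1 and 18.4 TPM in NS libraries. Its relative ACSL5 had 17.6, 13.9, 16.9 and 21.7 TPM with budesonide, against 1.40, 0.890, 1.06 and 1.13 TPM in NS libraries, at a lower level and a larger change. PLIN2, a coat protein of lipid droplets, averaged 42.8 ± 2.00 TPM with budesonide and 14.3 ± 1.61 TPM without. ANGPTL4, an inhibitor of lipoprotein lipase, averaged 41.3 ± 3.83 TPM with budesonide and 6.55 ± 1.37 TPM without. Of 33 genes of cholesterol synthesis and uptake, by contrast, 1 was called, the exporter ABCA1, which was raised. This was near the 4.1% raised over all genes. HMGCS1, an enzyme of cholesterol synthesis, had 157, 154, 138 and 154 TPM with budesonide and 159.7, 156, 146 and 165 TPM without, which overlapped. PDK4, which slows the entry of glucose carbon into mitochondria, had 131, 125, 126 and 176 TPM with budesonide, against 37.4, 34.1, 40.4 and 62.4 TPM in NS libraries. GLUL, glutamine synthetase, averaged 97.8 ± 19.3 TPM with budesonide and 34.7 ± 3.91 TPM without, while PHGDH, the first enzyme of serine synthesis, fell to 4.43 ± 0.872 TPM with budesonide, against 17.6 ± 1.28 TPM in NS cells.

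Enzymes that handle drugs, steroids and reactive compounds changed in both directions, with 5 raised and 8 lowered of 31. MAOA, monoamine oxidase A, had 65.6, 52.3, 39.6 and 88.2 TPM with budesonide, against 5.95, 3.91, 4.27 and 5.67 TPM in NS libraries. CYP24A1, which degrades vitamin D, had 109.9, 115, 91.5 and 82.6 TPM with budesonide, against 500.3, 493, 417 and 453 TPM in NS libraries. AKR1B10, which reduces aldehydes and retinal, had 1632, 1523, 1566 and 1724 TPM with budesonide, against 4740.2, 4175, 4561 and 5508 TPM in NS libraries, among the largest falls in TPM. ALDH3A1, which oxidizes aldehydes, had 356, 384, 346 and 299 TPM with budesonide, against 749, 793, 884 and 584 TPM in NS libraries. AKR1B1, aldose reductase, averaged 277 ± 16.6 TPM with budesonide and 576 ± 30.1 TPM without. GCLM, a subunit of the enzyme that starts glutathione synthesis, had 48.6, 40.8, 41.9 and 41.5 TPM with budesonide, against 107, 105, 100.3 and 99.1 TPM in NS libraries, and SLC7A11, the cystine carrier, averaged 17.3 ± 2.57 TPM with budesonide and 52.3 ± 5.09 TPM without. AKR1B10, GCLM and SLC7A11 are known targets of the factor NRF2. NQO1, another, had 1350.1, 1426, 1409.6 and 1279.6 TPM with budesonide and 2353, 2197, 2283 and 2432 TPM without, groups that did not overlap at a change of -0.76 ± 0.05 that was under 2-fold. TXNRD1, also a target, had overlapping values, 768, 614, 647 and 756 TPM with budesonide and 630.1, 546, 538 and 617 TPM without. The known targets thus did not all change by the same amount. FTL, the light chain of the iron store ferritin, had 3426, 3416, 3844 and 3817 TPM with budesonide, against 8305, 7878, 8081 and 8563 TPM in NS libraries, the largest fall in TPM of all called genes. TFRC, which brings iron into the cell, fell too, with 35.1, 33.4, 46.4 and 42.9 TPM with budesonide, against 101, 84.9, 101 and 91.0 TPM in NS libraries. The mRNAs of both these iron handling genes were lower in every budesonide library than in any NS library. Of 6 metallothioneins tested, which bind zinc and copper, 3 were raised, with MT2A at 764, 760.0, 924 and 582 TPM with budesonide, against 198, 244, 223 and 113 TPM in NS libraries, and MT1X at 197, 214, 308 and 125 TPM with budesonide, against 23.4, 27.8, 30.7 and 10.4 TPM in NS libraries. GPX2, a glutathione peroxidase of epithelia, and AGR2, which folds mucins, had 437 ± 105 TPM and 288 ± 34.3 TPM with budesonide, against 1166 ± 141 TPM and 927 ± 175 TPM in NS cells.

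Genes of DNA replication and mitosis were lower with budesonide almost throughout. Cells copy their DNA in S phase, after helicases have been loaded on origins, and divide in mitosis, when kinases and motors build the spindle and pull the chromosomes apart. The 9 lists of cell division held 224 tested genes, of which 173 were lowered and none raised by limma. Over all genes 5.7% were lowered and 4.1% raised. All 173 had groups that did not overlap, as had 97.8% of all 760 lowered genes. At an unadjusted p of 0.05, 2 of the 224 were higher. The 173 were 22.8% of the 760 lowered genes. In RNA pooled over a culture, fewer cells in a phase of the cycle and less of these mRNAs per cell cannot be told apart.

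Of 23 genes of origin licensing and the helicase, 18 fell, with a median log2 fold change of -2.05. CDC6, which loads the helicase on origins, had 3.45, 3.13, 3.48 and 2.37 TPM with budesonide, against 53.1, 54.3, 53.3 and 44.7 TPM in NS libraries. CDC45, MCM10 and GINS2, parts of the active helicase, averaged 1.35 ± 0.339 TPM, 0.725 ± 0.265 TPM and 1.73 ± 0.207 TPM with budesonide and 18.9 ± 2.39 TPM, 12.2 ± 1.97 TPM and 20.1 ± 1.33 TPM in NS cells. CDT1, the partner of CDC6, had 3.15, 2.77, 1.70 and 4.08 TPM with budesonide, against 15.6, 13.6, 12.4 and 11.7 TPM in NS libraries. ORC1, the subunit of the origin recognition complex that varies with the cycle, had 1.03, 1.01, 0.986 and 1.12 TPM with budesonide, against 8.65, 7.83, 8.60 and 7.47 TPM in NS libraries. DTL, which marks CDT1 for destruction in S phase, averaged 1.58 ± 0.492 TPM with budesonide and 20.3 ± 2.71 TPM without. None of the licensing genes named had groups that overlapped.

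Of 36 genes of polymerases, the fork and nucleotide supply, 30 fell, with a median of -1.77. PCNA, the clamp that holds polymerases on DNA, had 80.8, 97.9, 92.0 and 79.2 TPM with budesonide and 339, 346, 333 and 354 TPM without. RRM2, the regulated subunit of ribonucleotide reductase, had 17.2, 16.2, 13.1 and 12.0 TPM with budesonide, against 130.2, 123, 106 and 139.9 TPM in NS libraries, and RRM1, its stable partner, had 28.7, 32.5, 30.8 and 30.8 TPM with budesonide, against 91.2, 92.8, 88.8 and 88.6 TPM in NS libraries. TYMS and TK1, which supply thymidine nucleotides, averaged 20.8 ± 3.13 TPM and 11.3 ± 2.16 TPM with budesonide and 108 ± 6.70 TPM and 87.4 ± 9.19 TPM in NS cells. UHRF1, which copies DNA methylation to new strands, averaged 1.66 ± 0.187 TPM with budesonide and 15.1 ± 0.854 TPM without. ASF1B, a histone chaperone, averaged 1.71 ± 0.356 TPM with budesonide and 20.7 ± 1.56 TPM without. RRM2 fell by a larger factor than RRM1, and all of these genes were lower in every budesonide library. Repair genes of homologous recombination went with them, 21 lowered of 28, among them EXO1, an exonuclease, which averaged 1.67 ± 0.273 TPM with budesonide, against 18.2 ± 1.88 TPM in NS cells.

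The mitotic lists held the deepest medians. Of 24 mitotic kinases and checkpoint genes, 21 fell (median -2.44). Of 28 kinetochore and centromere genes, 25 fell (median -2.38), and of 24 spindle motor and cytokinesis genes, 24 fell (median -2.47). CDK1, the kinase that drives entry into mitosis, was among the 20 genes with the most negative change (-3.28 ± 0.13, SE). PLK1, a kinase of spindle assembly, had 8.76, 10.8, 6.14 and 8.60 TPM with budesonide, against 57.8, 66.8, 61.1 and 55.9 TPM in NS libraries. AURKA and AURKB, kinases at the spindle poles and on chromosomes, averaged 8.16 ± 1.24 TPM and 8.55 ± 1.35 TPM with budesonide and 53.2 ± 4.25 TPM and 56.8 ± 5.33 TPM in NS cells. UBE2C, the enzyme that tags cyclin B for destruction, had 12.2, 14.2, 11.7 and 12.3 TPM with budesonide, against 102, 112, 104 and 95.3 TPM in NS libraries, and CCNB1, cyclin B1, had 30.5, 31.7, 30.0 and 26.6 TPM with budesonide, against 160.2, 176, 158 and 162 TPM in NS libraries. CENPA, the histone of centromeres, had 4.44, 3.22, 3.12 and 2.82 TPM with budesonide, against 30.6, 30.9, 34.2 and 32.9 TPM in NS libraries, and HJURP, its chaperone, had 8.63, 7.87, 7.98 and 8.14 TPM with budesonide, against 77.2, 79.3, 73.4 and 74.1 TPM in NS libraries. KIF20A and KIF11, spindle motors, averaged 4.47 ± 0.565 TPM and 4.28 ± 0.716 TPM with budesonide and 24.7 ± 2.22 TPM and 27.3 ± 1.21 TPM in NS cells. Every member of the spindle list fell, the least being CKAP2 (-1.48 ± 0.16, SE). NCAPH, a condensin subunit, fell to 3.50 ± 1.23 TPM with budesonide, against 30.2 ± 0.934 TPM in NS cells, and the antigen of proliferating cells MKI67 to 3.36 ± 0.808 TPM with budesonide, against 25.8 ± 1.76 TPM in NS cells. BIRC5, survivin, which belongs to the BIRC family but works in chromosome segregation, had 5.76, 8.42, 6.67 and 7.77 TPM with budesonide, against 54.0, 50.5, 50.6 and 50.3 TPM in NS libraries. TUBA1B, an alpha tubulin of the spindle and of resting cells, had 175, 203, 157 and 163 TPM with budesonide, against 1021, 1067, 1012 and 872 TPM in NS libraries. TUBB, a beta tubulin, had 126, 132, 115 and 131 TPM with budesonide, against 449, 480.2, 434 and 421 TPM in NS libraries. Both tubulins and BIRC5 were thus lower in all 4 budesonide libraries.

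Fewer of the regulators of the cycle were called, 8 of 19 genes of the E2F and RB families and 12 of 21 cyclins and kinases. MYBL2 had 2.41, 2.78, 2.15 and 2.41 TPM with budesonide, against 26.0, 28.2, 25.5 and 24.1 TPM in NS libraries. FOXM1 had 5.76, 6.89, 4.84 and 4.61 TPM with budesonide, against 35.3, 41.0, 39.4 and 36.9 TPM in NS libraries, and E2F8 had 0.353, 0.542, 0.333 and 0.267 TPM with budesonide, against 5.77, 5.66, 4.77 and 4.54 TPM in NS libraries. All 3 are factors whose own level is known to rise when cells cycle. E2F4, which is present in resting cells, had overlapping values, 25.1, 27.6, 28.9 and 28.0 TPM with budesonide and 31.4, 30.5, 31.5 and 28.4 TPM without. CCNE1 and CCNE2, the E cyclins of S phase entry, averaged 4.43 ± 0.666 TPM and 1.04 ± 0.174 TPM with budesonide and 13.5 ± 0.893 TPM and 6.25 ± 1.23 TPM in NS cells. CCND1, the D cyclin that growth factors induce, had 86.5, 61.7, 73.5 and 85.3 TPM with budesonide and 82.1, 71.0, 57.3 and 67.4 TPM without, which overlapped. MYC had 33.5, 32.8, 30.8 and 36.7 TPM with budesonide and 26.2, 26.1, 28.1 and 26.5 TPM without, a change of 0.32 ± 0.09 (SE) below the threshold. Among inhibitors of cyclin-dependent kinases CDKN1C had 25.2, 20.8, 22.3 and 30.1 TPM with budesonide, against 0.732, 0.575, 0.870 and 1.17 TPM in NS libraries. CDKN1A had 83.5, 77.7, 79.0 and 81.5 TPM with budesonide, against 40.3, 37.9, 36.6 and 41.7 TPM in NS libraries, a change close to the threshold (1.03 ± 0.10). CDKN1B had overlapping values, 40.0, 39.8, 39.9 and 51.2 TPM with budesonide and 37.9, 33.0, 44.9 and 43.0 TPM without. CDKN3, a phosphatase whose level follows mitosis, fell to 19.7 ± 5.12 TPM with budesonide, against 119.5 ± 8.85 TPM in NS cells.

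**Figure D3:**
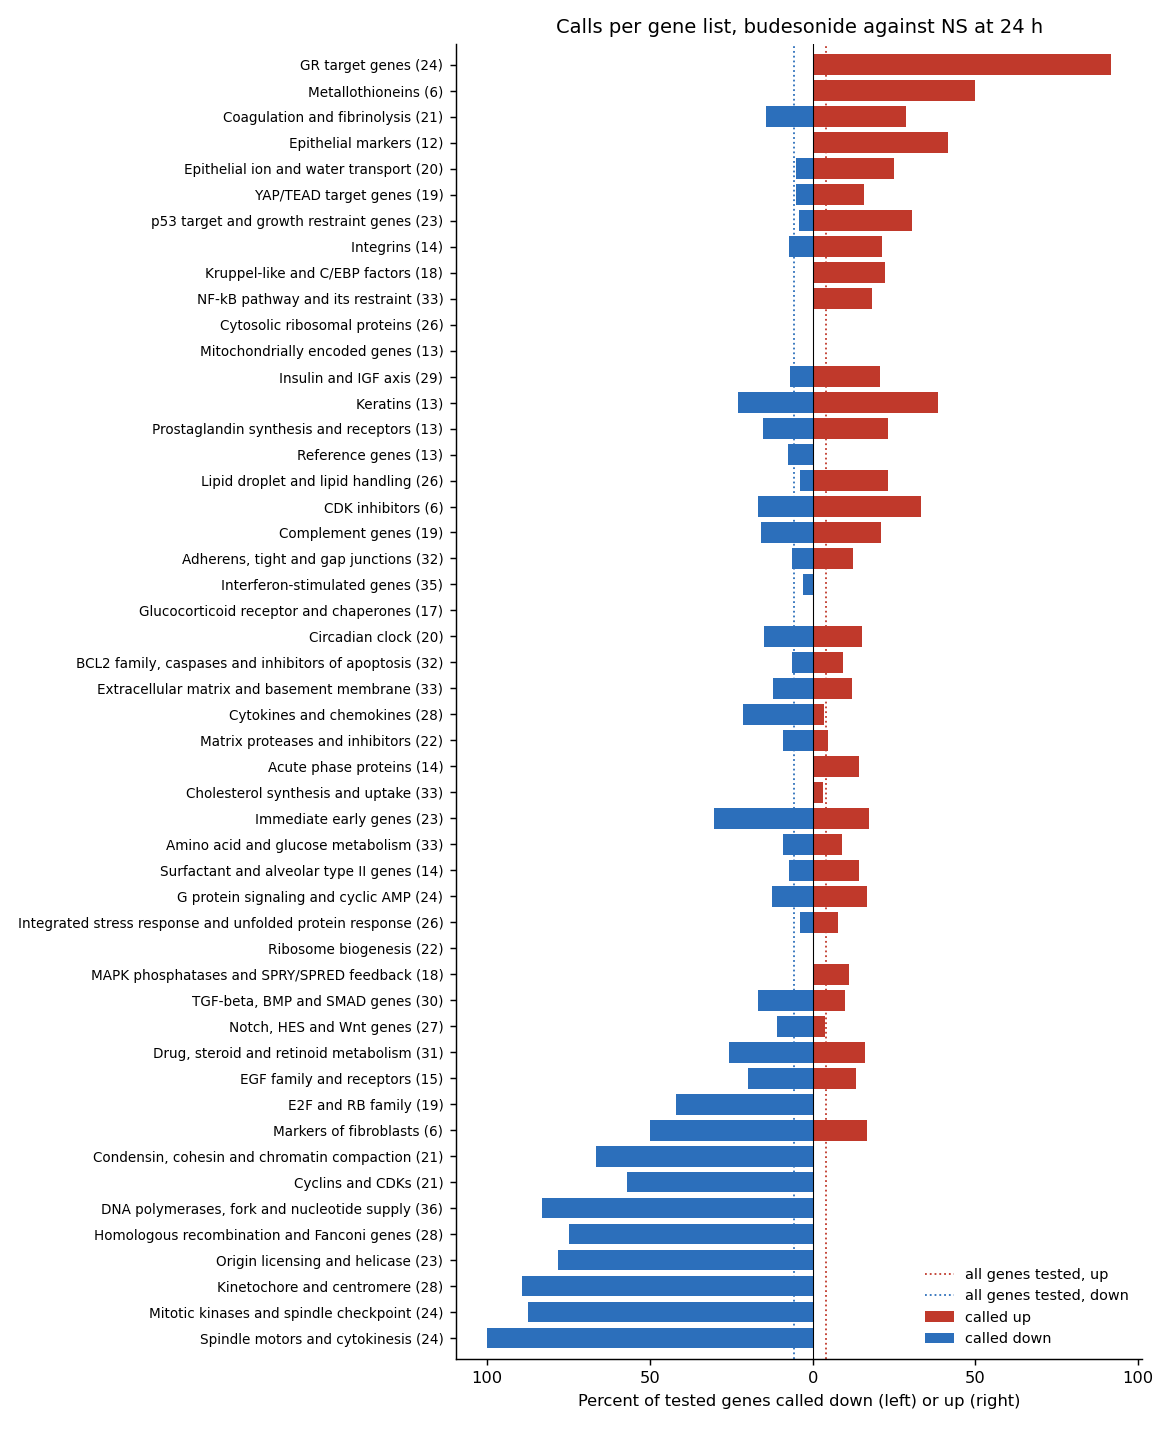
Percent of tested genes called down (blue, left) and up (red, right) in each gene list with 6 or more tested genes, ordered by median change, with dotted lines at the percent over all 13327 genes (4.1 up, 5.7 down). The GR target list has 22 of 24 called up, and the 9 lists of cell division have no gene called up.

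Outside the lists, HLA-DMB, a chaperone of class II antigen loading, was the most lowered gene, with 2.12, 2.32, 4.38 and 2.32 TPM in budesonide libraries, against 47.3, 55.2, 87.7 and 44.4 TPM in NS libraries. CEACAM5, an adhesion protein of mucosa, had 0.696, 0.812, 0.592 and 3.62 TPM with budesonide, against 8.91, 13.5, 10.6 and 46.5 TPM in NS libraries, with replicate 4 the highest of both groups. BCAS1 averaged 0.474 ± 0.121 TPM, RASSF10 0.267 ± 0.166 TPM and HABP2, a serum protease, 0.628 ± 0.302 TPM with budesonide, against 9.62 ± 1.37 TPM in NS cells, 6.42 ± 1.89 TPM and 9.16 ± 1.92 TPM in NS cells. NT5DC4 had 0.0187, 0, 6.16 and 4.25 TPM with budesonide, against 15.3, 29.3, 32.0 and 20.8 TPM in NS libraries. Its budesonide libraries split into 2 near 0 and 2 at several TPM. ESCO2, which acetylates cohesin in S phase, and FAM111B, a protease, averaged 1.95 ± 0.826 TPM and 0.697 ± 0.0875 TPM with budesonide and 27.6 ± 0.950 TPM and 10.2 ± 0.634 TPM in NS cells.

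The change at 24 h was then set beside those at the earlier times, each of which had its own NS libraries. Of the 546 genes raised at 24 h, 357 were also raised at 12 h, and the numbers shared with the shorter exposures were 305 (6 h), 76 (2 h) and 23 (1 h). No earlier call was made for 164 of them (30.0%). Of the 760 lowered genes, 300 were also lowered at 12 h, and the numbers at the shorter exposures were 88 (6 h), 24 (2 h) and 3 (1 h). No earlier call was made for 451 of them (59.3%). No gene called at 24 h was called in the other direction at an earlier time. The median change of the GR target list was 1.16 after 1 h, 1.73 after 2 h and 2.22 after 6 h, and then stayed close to that with 2.13 (12 h) and 2.05 (24 h).

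The difference between the changes at 24 h and 12 h was tested gene by gene. For 12 h the labels state 3 independent experiments, whereas the table holds 4 libraries a group, none of them identical to another. It was positive for 6 genes (0.045% of those tested) and negative for 221 (1.66%), of which 215 were lowered at 24 h. With the replicate number as a block, 13 were positive. Both differences use the same 24 h libraries as the comparison itself. Against 6 h, 102 genes (0.765%) had a higher and 486 (3.65%) a lower change at 24 h. The 9 lists of cell division held 124 of the 221 genes (56.1%). The 6 positive genes were SCNN1B, CASP1, KRT16, CDHR2, SNTB1 and VPREB3. SCNN1B, the one of them that reached a mean of 5 TPM, changed by 2.33 at 6 h, 3.06 at 12 h and 4.23 ± 0.16 at 24 h (SE).

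The lists of cell division differed in when they fell. At 12 h, 347 of all 13327 genes tested were lowered. By then 13 of 23 licensing genes and 19 of 36 polymerase and fork genes were already lowered, with medians of -1.25 and -1.0. At the same time 1 of 24 mitotic kinase and checkpoint genes, 5 of 28 kinetochore genes and 1 of 24 spindle genes were lowered, with medians of -0.29, -0.64 and -0.46. The change then became more negative at 24 h for 20 of the 24 mitotic kinase and checkpoint genes, 25 of the 28 kinetochore genes and 23 of the 24 spindle genes by the test of the difference. For licensing this held for 9 of 23 and for polymerases and the fork for 13 of 36. CENPA had a change of -0.33 at 12 h and -3.08 ± 0.13 at 24 h, a difference of -2.75 ± 0.19 (SE, limma adjusted p = 3.09e-18). The change of UBE2C was -0.25 at 12 h and -2.98 ± 0.13 at 24 h. PLK1 changed by -0.11 and -2.77 ± 0.12 at these times, and NUF2 of the kinetochore by -0.22 and -2.76 ± 0.21. CDK1 had already changed by -0.73 at 12 h. PIMREG, which acts at the exit from mitosis, and PIF1, a helicase, had differences of -2.69 ± 0.21 and -2.50 ± 0.27, and NT5DC4 of -4.15 ± 0.86. CDC6 by contrast had -2.41 at 12 h and -3.85 ± 0.14 at 24 h, and PCNA -1.27 and -1.97 ± 0.07. Neither the number of cells nor their phase was measured.

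**Figure D4:**
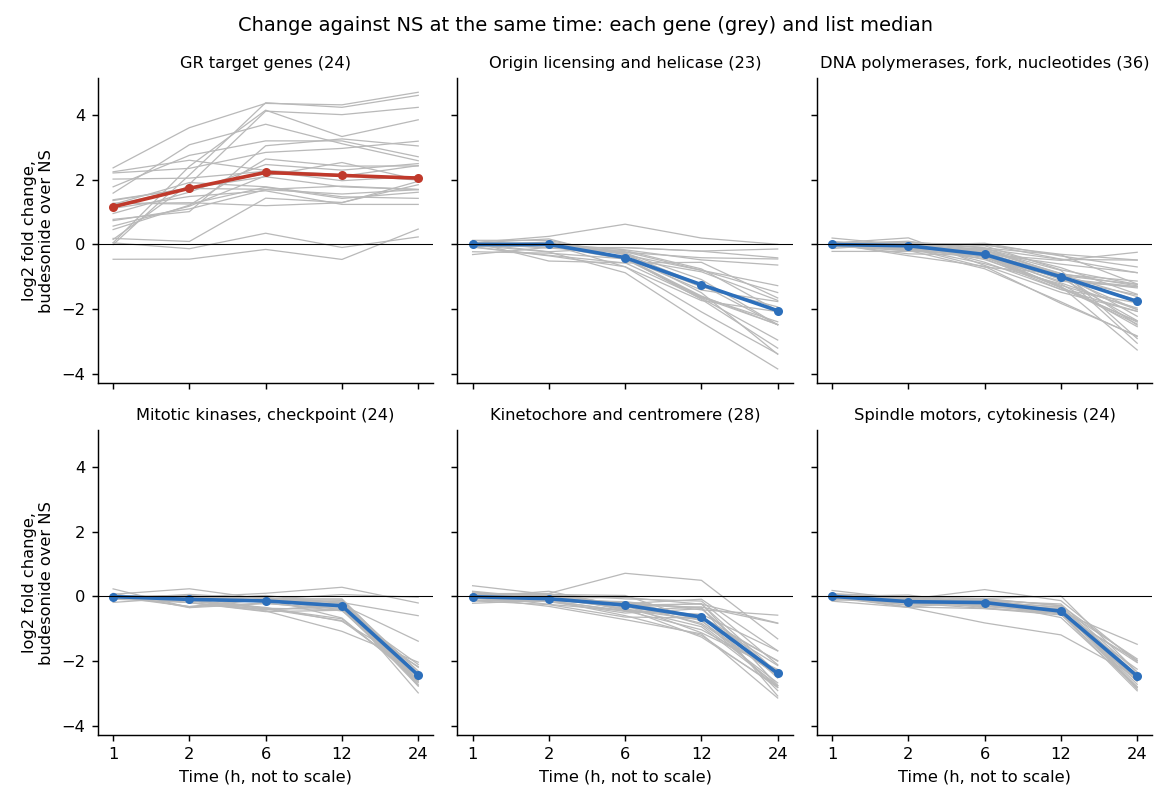
Change of each gene against NS of the same time (log2, grey lines) and the list median (coloured line) at 1, 2, 6, 12 and 24 h for 6 lists, with the number of tested genes in brackets. GR targets are near their full change by 6 h (median 2.22), licensing and polymerase genes lie lower at 12 h (medians -1.25 and -1.0), and mitotic, kinetochore and spindle genes lie lowest at 24 h (medians -2.44, -2.38 and -2.47).

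Promoters of the lowered genes of both kinds were compared for short motifs that are known from cell cycle genes. Genes of mitosis are known for the cell cycle element CHR (TTTGAA) and the CCAAT box, and genes of S phase for E2F sites (cores TTTCGCG and TTTGGCG). Each was searched on both strands of RefSeq windows from 250 bases before to 50 bases after the start, and 59 of 70 lowered genes of the 3 mitotic lists and 42 of 48 of the 2 replication lists had a window. The CHR was found in 66.1% of the mitotic, 7.14% of the replication and 9.68% of all 10665 promoters of tested genes. The E2F cores were found in 11.9%, 40.5% and 5.14% of these sets. The CCAAT box was found in 76.3%, 54.8% and 36.2%, and the GC-rich E2F core GGCGGG in 84.7%, 85.7% and 69.3%. Over all 27305 promoters of the table the shares were 15.4% for the CHR, 3.22% for the E2F cores, 35.7% for CCAAT and 44.7% for GGCGGG. Within the window the CHR lay centred from 30 bases before to 10 bases after the start in 39.0% of mitotic promoters, against 1.46% of those of all genes tested, and the E2F cores in 33.3% of replication promoters, against 0.881%. These shares are counts of letters and not of bound sites, and the genes were grouped by list and by call.

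**Figure D5:**
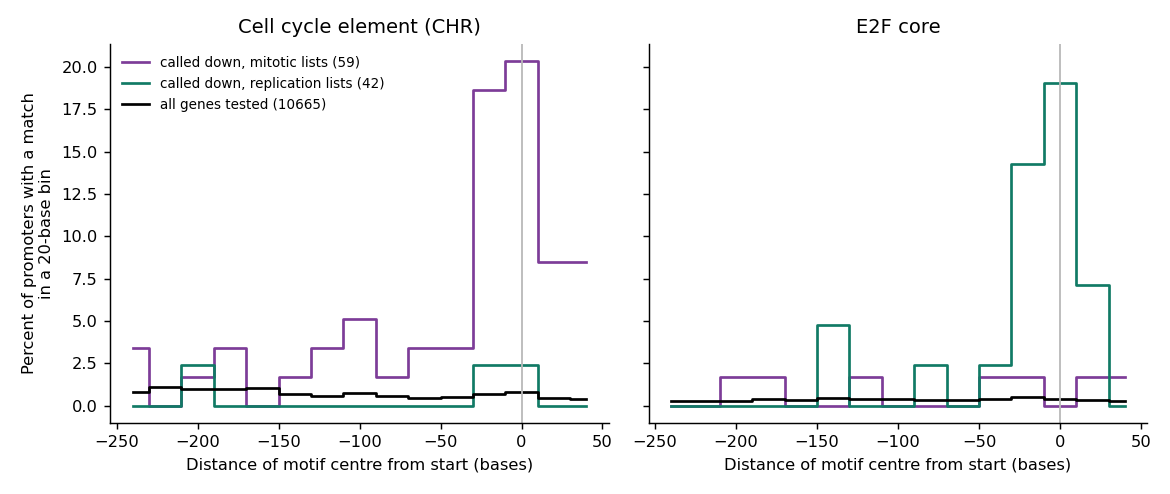
Percent of promoters with a match centred in each 20-base bin, by distance from the gene start, for the CHR (left) and the E2F cores (right), in lowered genes of the 3 mitotic lists (59), lowered genes of the 2 replication lists (42) and all genes tested with a window (10665). The CHR has its highest share near the start in the mitotic set and the E2F cores near the start in the replication set.

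The promoters below are those of the gene with the largest change in the mitotic and in the licensing list that holds the motif, from 100 bases before to 20 bases after the start, both on the plus strand. In PLK1 (chr16:23678789-23678908) capitals mark the CCAAT box and the CHR, which begin 73 and 29 bases before the start. In CDC6 (chr17:40287779-40287898) they mark the E2F cores, which begin 28 bases before and 7 bases after it.
PLK1: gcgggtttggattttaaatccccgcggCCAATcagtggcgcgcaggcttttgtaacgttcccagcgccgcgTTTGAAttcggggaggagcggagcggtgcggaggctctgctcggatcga
CDC6: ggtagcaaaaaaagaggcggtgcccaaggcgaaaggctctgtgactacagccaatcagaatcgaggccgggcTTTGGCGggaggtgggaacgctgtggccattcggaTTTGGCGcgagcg

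The lists of ribosomal protein, ribosome biogenesis and mitochondrially encoded genes held no called gene. Over all genes 4.1% were raised and 5.7% lowered, so none called in lists of this size is near those shares. Of 26 cytosolic ribosomal protein genes, 22 ribosome biogenesis genes and 13 mitochondrially encoded genes, limma called none, and at an unadjusted p of 0.05 there were 10 higher ribosomal protein genes, 1 higher and 12 lower biogenesis genes and 6 higher mitochondrial genes. All 26 ribosomal protein genes had a change above 0 (median 0.20), as had 12 of the 13 mitochondrial ones (median 0.20). After quantile normalization, which makes the distribution of values the same in each library, these medians were -0.01 and -0.04. Of 13 reference genes TFRC alone was called. GAPDH had 2859, 2926, 2857 and 3174 TPM with budesonide and 3354, 3369, 3442 and 3570.5 TPM without, a change of -0.22 ± 0.09 (SE).

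Some of the named genes share sequence with other genes, so their values depend on how reads were divided. Of the distinct 31-base words in their transcripts, those also in another gene made up 44.1% for KRT6A, 40.3% for SAA1, 41.2% for IGF2, 33.5% for FTL, 31.5% for AKR1B10, 31.4% for TUBA1B, 30.3% for SERPINA3, 29.4% for KRT18 and 46.0% for FOXO3.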

How the data were processed

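Gene values were used as deposited, in a table with 1 value per gene and library. The authors made these signal values by pseudoaligning the reads with kallisto to a GRCh38/hg38 transcriptome (versions not given in the sources used here), expressing them as TPM and rescaling them between libraries with sleuth. Library sums differ as a result, and the read depth behind a value is unknown, so no counting interval was given. A second deposited file of the authors holds their own fold changes and adjusted p-values and was not used. The table holds 79 libraries, of which 78 in 20 groups were used and 1 could not be matched to its labels (an NS library at 6 h), so the comparison at 6 h had 7 libraries.

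The test covered the 13327 of 19652 genes that reached 1 TPM in 3 or more of the 78 libraries, those of the other treatments included. Changes were computed on log2(TPM + 0.5) with limma 3.58.1 in R 4.3.3, with 1 mean per group over all groups (58 residual degrees of freedom), a variance trend and Benjamini-Hochberg adjustment over all genes. Calls needed an adjusted p of at most 0.05 and a log2 change of at least 1. In simulated data 0 of 40 genes changed by 1.5-fold were called, 12 of 40 changed by 2-fold and 39 of 40 changed by 3-fold. There were 0 calls among unchanged genes. The simulated noise was independent between libraries, and no gene near 0 in NS was among those changed. These counts therefore do not cover libraries that deviate together or changes of genes near 0. Same-numbered budesonide and NS libraries deviated together at 24 h (correlations of 0.124 to 0.357, against -0.197 to 0.057 for other numbers). Deviations were taken from group means, so positive values for the same number push those for other numbers down. The ranges are thus not independent. The numbers were taken to pair samples, and a fit with the number as a block was an alternative. The labels give 4 independent experiments for 24 h but not which library came from which. The other alternatives were 2 pseudocounts, 2 filters, 2 scalings, no variance trend, the groups of a contrast alone and each library left out.

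The genes and lists were chosen with earlier results of these data known. Named were list members, BIRC3 and BIRC2, the 20 highest and 20 lowest fold changes among called genes with groups that did not overlap and a mean of at least 5 TPM, the 10 largest rises and falls in TPM, and the 8 highest and 8 lowest differences between the changes at 24 h and 12 h. A few list members are not reported here. The 6 genes with a positive difference were named after their values were seen. Promoters came from RefSeq (GRCh38.p14), with 10665 of the 13327 genes matched by symbol or older symbol. The span around the start in which motifs were counted was chosen after their positions were seen. Shared sequence was counted in GENCODE transcripts on the same strand.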

Additional observations from a re-analysis of the deposited data

Results flagged for a closer look

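Single libraries stood apart from the other 3 of their group in 33 of 354 groups of 4 examined over the genes named. For independent values with a normal spread, chance alone gives about 1 in 20. These genes share the same libraries and some lie near 0, so whether 33 is more than chance gives was not tested. Budesonide replicate 4 accounted for 9 of these. It was the highest of its group for KRT6A (47.7 TPM), CEACAM5 (3.62 TPM), HSD11B1 (8.84 TPM), HSD11B2 (31.3 TPM), IGFBP1 (83.4 TPM), PDK4 (176 TPM), KRT4 (2.69 TPM), LOX (3.81 TPM) and CDKN1B (51.2 TPM). NS replicate 4 was the highest for CEACAM5 (46.5 TPM), GMPR (0.568 TPM), SAA1 (0.120 TPM), LUM (6.91 TPM) and SGK1 (24.3 TPM), and the lowest for CDC6 (44.7 TPM). CEACAM5 was thus highest in replicate 4 of both groups. NS replicate 3 was the highest for FST (9.70 TPM), PTGS2 (60.6 TPM), HABP2 (12.0 TPM) and CXCL5 (115 TPM), and the lowest for EXO1 (15.4 TPM) and KRT7 (1450 TPM). Budesonide replicate 3 was the highest for FKBP5 (250.4 TPM), HLA-DMB (4.38 TPM) and HABP2 (1.08 TPM) and the lowest for PHGDH (3.14 TPM). In budesonide replicates 1 and 2, FOXO1 (10.7 TPM), GCLM (48.6 TPM), GMPR (10.6 TPM) and KIF11 (5.35 TPM) were high. In NS replicates 1 and 2, BIRC5 (54.0 TPM), NRG1 (56.9 TPM) and PGC (0.0327 TPM) were high, and ESCO2 (26.2 TPM) low. Of the called genes among these, LUM alone had groups that overlapped.

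The changes at 24 h and at an earlier time differed by the test of the difference for 6 genes upward and 221 downward against 12 h, and for 102 upward and 486 downward against 6 h. Among genes with a mean of at least 5 TPM in any of these groups, SCNN1B had the one higher change at 24 h than at 12 h (1.17 on the log2 scale). The most negative differences were -4.15 for NT5DC4, -2.75 for CENPA, -2.73 for UBE2C, -2.69 for PIMREG, -2.66 for PLK1, -2.55 for CDK1, -2.54 for NUF2 and -2.50 for PIF1.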

How the results depend on the processing

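The numbers of genes raised and lowered at 24 h stayed within 1.5 times of 546 and 760 under every alternative but 1. Among genes with a mean of at least 5 TPM, 347 were raised. With each library left out in turn, 514 to 576 genes were raised and 751 to 800 lowered. The smallest count moved most. The 6 genes with a higher change at 24 h than at 12 h became 1 among genes with a mean of at least 5 TPM, 11 with a pseudocount of 0.1, 3 with a pseudocount of 1, 13 with the replicate block, and 6 to 10 with a library left out, the 10 being reached without budesonide replicate 2 of either time. For lower changes the range was 210 to 225. Against 6 h, the 102 higher changes became 60 among genes with a mean of at least 5 TPM and ran from 82 to 108 with a library left out, and the lower ones from 458 to 498. The replicate block kept all 546 raised and all 760 lowered genes and called 551 and 763. Against 12 h it called 231 lower changes, and against 6 h 111 higher and 515 lower ones. It changed the call of no gene named. No called gene among those named reversed its direction under any alternative, while the medians of ribosomal protein and mitochondrially encoded genes, which held no called gene, changed sign after quantile normalization (-0.01 and -0.04). Median-of-ratios scaling gave 567 raised and 741 lowered genes and quantile normalization 599 and 697, with the median change of all genes between -0.01 and 0.02. A pseudocount of 0.1 gave 667 and 957. The unknown depth limits what can be said of genes near 0.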
